A study of Mus musculus with 15 samples.

Results

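The 10 genes Ankrd1, Ankrd2, Ankrd23, Csrp3, Xirp1, Xirp2, Flnc, Mustn1, Nrap and Fhl1, known for roles in sensing mechanical strain and repairing sarcomeres after eccentric (lengthening) contraction, were followed in the gastrocnemius of aged mice. The list rests on general knowledge of these roles and its rule uses no measured value, but it was chosen with earlier results of these data known. Each symbol matched 1 of the 55450 Ensembl genes counted. All 10 passed the filter on low counts, which left 16920 genes for testing. Polyadenylated RNA was sequenced from 1 gastrocnemius of each of 15 C57BL/6JN females, all past 17 months of age at study entry. The labels call the mice robust or frail, and these names were read as the Low frailty group, with no more than 1 frailty marker, and the High frailty group, with 2 or more. Markers were scored within the cohort on treadmill distance, grip strength, Rotarod latency, body weight and a frailty index, and the mice were placed in the Low or High group after the experiment, so frailty was not assigned and its marks include running capacity. Control mice stayed in their cages, whereas Run mice ran downhill on 2 consecutive days at 13 m/min on a 22° decline, in 10 stages with 6 min of running each. The muscle was taken 24 h after the second bout, and the labels name no transgene or drug. The groups held 4 Low Control mice (D8, D9, D11 and D98), 4 Low Run mice (D57, D61, D66 and D68), 3 High Control mice (D23, D25 and D67) and 4 High Run mice (D49, D52, D53 and D62). Values for a group are given in that order of mice throughout, as CPM (counts per 1e6 counted reads of a library), with library sizes scaled by TMM (trimmed mean of M-values) factors.

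As background, each muscle fiber transmits force through Z-discs, where the thin filaments of neighboring sarcomeres are anchored, and through costameres and myotendinous junctions, which tie the fiber to its surroundings. Lengthening contractions overstretch some sarcomeres, and proteins that sense titin strain, patch torn Z-discs and remove unfolded filamin are then made in larger amounts. In fast muscle such as the gastrocnemius several of these genes are expressed at low levels at rest and are used as early marks of eccentric loading. Ankrd1, Ankrd2 and Ankrd23 encode the muscle ankyrin repeat proteins, which bind the spring region of titin and can also enter the nucleus, and Csrp3 encodes muscle LIM protein, a Z-disc partner of the same sensor. Flnc encodes filamin C, an actin crosslinker of the Z-disc and costamere, Xirp1 and Xirp2 encode the Xin repeat proteins that collect at damaged sites, and Nrap encodes a scaffold of the myotendinous junction and of growing myofibrils. Mustn1 encodes a small protein of muscle and regenerating tissue, and Fhl1 encodes a LIM protein of the sarcomere linked to load-induced growth.

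Library totals were 19395125 to 30699216 counts. The muscle fiber markers summed to between 160422 and 243417 CPM in every mouse. They mark skeletal muscle, and which muscle was taken was not tested. On the first principal component of all genes, which carried 26.0% of the variance, Low Control mouse D9 lay at -76.0 and High Run mouse D62 at -49.3, with the other 13 mice between -14.4 and 19.7. Values of the 10 genes that moved by over 1.5 times without these 2 libraries are given again without them. In whole muscle, fewer cells of one kind and less RNA per cell cannot be told apart.

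All 10 genes are annotated as protein coding (GRCm38, GENCODE M21). Ankrd1 (ENSMUSG00000024803; chr19:36111961-36120099, minus strand), Ankrd2 (chr19:42036000-42045110, plus strand) and Nrap (chr19:56320035-56390037, minus strand) share chromosome 19. Flnc spans chr6:29433256-29461883 and Xirp2 chr2:67446002-67526614, both on the plus strand, and Xirp1 spans chr9:120013755-120023598 on the minus strand. Csrp3 (chr7:48830398-48848033, minus strand), Mustn1 (chr14:30879200-30881610, plus strand) and Fhl1 (chrX:56731787-56793346, plus strand) complete the set with Ankrd23 (chr1:36530188-36536883, minus strand). Of the 2697 exon bases of Ankrd23, 2109 are shared with Gm42417 on the same strand, so its counts are uncertain.

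Short stretches of promoter are shown here for the motif that TEAD factors bind, because TEAD and its partner YAP are known to respond to mechanical load. The motif is M-CAT, searched on both strands as CATTCC or GGAATG in the 250 bases before each RefSeq start (GRCm38.p6). Promoters were found for 9 of the 10 genes, in 13 windows, and for Xirp1 none was listed. The M-CAT letters were in 3 of those 13 windows, 1 in each of 3 genes, and in 12.6% of 32851 promoter windows of the same length. Capitals mark the match in each 30-base stretch, given 5′ to 3′ on the strand of the gene.
Ankrd1 first match, chr19:36120037-36120066, minus strand: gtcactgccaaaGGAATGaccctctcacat
Ankrd1 second match, chr19:36119950-36119979, minus strand: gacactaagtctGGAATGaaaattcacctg
Ankrd23, chr1:36535842-36535871, minus strand: cccagtgggccaCATTCCcagaacggtatt
Flnc, chr6:29433140-29433169, plus strand: cgggccgggcggCATTCCtgggaggccggc
The Ankrd1 matches began 210 and 123 bases before the RefSeq start, and Ankrd1 was the single gene of the 9 with 2 of them. Both lie inside the 5′ untranslated exon of 1 longer GENCODE transcript, Ankrd1-205. The Flnc match began 104 bases and the Ankrd23 match 120 bases before a start. None of the 4 matches overlapped a match of the other motifs searched.

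The promoter of Xirp2, which held no M-CAT match, is also shown, with a MEF2 site and an AP-1 site (TGANTCA) in capitals.
Xirp2, chr2:67445752-67446001, plus strand: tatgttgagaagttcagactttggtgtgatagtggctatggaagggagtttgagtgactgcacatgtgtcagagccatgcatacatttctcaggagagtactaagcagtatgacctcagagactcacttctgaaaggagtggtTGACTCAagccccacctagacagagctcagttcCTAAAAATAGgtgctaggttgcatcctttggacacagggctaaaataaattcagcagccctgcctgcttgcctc
A MEF2 site was in 2.92% and an AP-1 site in 6.75% of all promoter windows. Fhl1 was the single gene of the 9 with a CArG box, the site of serum response factor, which 1.47% of windows held. E-boxes (CANNTG, bound by myogenic factors) were in 9 of the 13 windows, from 7 genes, and in 66.2% of all windows. A match is a string of letters and was not tested for binding.

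Levels per length, as RPKM (reads per kilobase of exon per 1e6 counted reads), placed Fhl1 and Nrap highest, with medians over the 15 mice of 405 and 352 RPKM. Their ranges overlapped widely, at 254 to 694 for Fhl1 and 219 to 715 for Nrap. Next came Xirp2 at a median of 198 RPKM, Ankrd2 at 154, Ankrd23 at 153, Flnc at 140 and Mustn1 at 88.5, each overlapping its neighbors in range. Xirp1 at 38.9, Csrp3 at 38.3 and Ankrd1 at 22.6 RPKM were lowest, and Ankrd1, with a range of 11.9 to 38.6, overlapped Csrp3 at 13.3 to 48.8. Across mice Ankrd2 had the widest relative range, from 46.8 to 417 RPKM, whereas Xirp2 ran from 137 to 249 and Ankrd23 from 116 to 191.

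**Figure D1:**
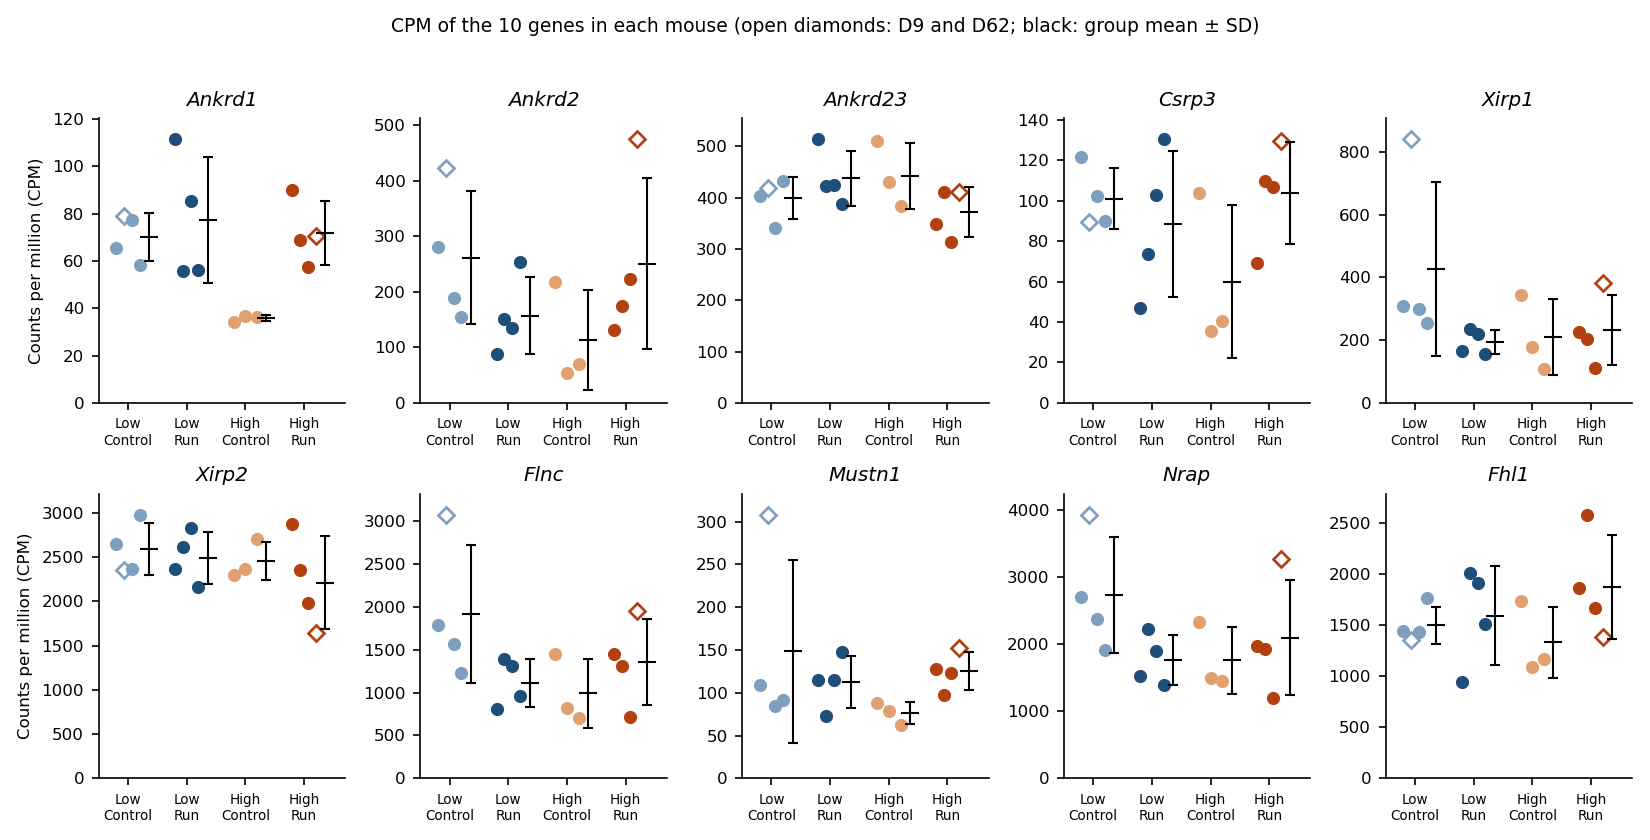
Each panel plots the CPM of 1 gene (vertical axis from 0) in each of the 15 mice by group, with D9 and D62 as open diamonds and the group mean ± SD in black. All 3 High Control mice sit between 34.3 and 36.8 CPM for Ankrd1, below the other 12 mice, and D9 stands above the other Low Control mice for Xirp1, Flnc, Mustn1 and Nrap.

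To ask how running 24 h earlier related to these genes in each frailty group, Run mice were compared with Control mice of the same group, and the Frailty × Run interaction tested whether the 2 run differences differed. At an FDR of 0.1, edgeR called 0 of the 10 genes in any comparison, where it called 0% of the 16920 genes. In Low mice 7 of the 10 log2 fold changes were below 0 (48.1% of all genes were), with a median of -0.29 against 0.02 for all genes. There 3 were lower at an unadjusted p under 0.05 (Xirp1, Flnc and Nrap; 7.52% of all genes were) and 0 were higher (5.92% of all genes were). Without D9 and D62, or without D9 alone, 6 of the 10 were below 0, 0 were lower at that p and the median was -0.18. The Low median was -0.19 without D61 and -0.49 without D68, and with any 1 mouse left out the count at that p ran from 0 to 3. In High mice 8 of the 10 were above 0 (57.2% of all genes were), with a median of 0.48 against 0.05 for all genes. Of these 3 were higher at an unadjusted p under 0.05 (Ankrd1, Ankrd2 and Csrp3; 3.28% of all genes were) and 0 were lower (1.9% of all genes were). Without D9 and D62, 6 of the 10 were above 0 in High mice, and the 3 at that p were Ankrd1, Fhl1 and Mustn1. The High median was 0.78 without D23, and with any 1 mouse left out the count at that p ran from 1 to 5.

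The interaction, written as the High run difference minus the Low run difference, was above 0 for 8 of the 10 genes (53.1% of all genes were), with a median of 0.93 against 0.03 for all genes. Of the 10, 4 were at an unadjusted p under 0.05 and positive (Ankrd1, Ankrd2, Flnc and Mustn1; 5.24% of all genes were). With D9 and D62 left out only Ankrd1 remained of these 4 and Ankrd23 was lower at that p, and with any 1 mouse left out the count ran from 1 to 7. Between the unrun groups 9 of the 10 genes were below 0 in High Control against Low Control (52.8% of all genes were), with a median of -0.85 against -0.02 for all genes. Of the 10, 5 were lower there at an unadjusted p under 0.05 (Ankrd1, Ankrd2, Xirp1, Flnc and Mustn1; 4.06% of all genes were). Without D9 that number was 1, Ankrd1, and with any 1 mouse left out it ran from 1 to 7. The same High Control mice enter the High run comparison, the comparison of the unrun groups and the interaction, and the same Low Control mice enter the last 2 and the Low run comparison, so these values are not independent. Without D9 and D62 the interaction median was 0.47 and the median between the unrun groups was -0.44. Averaged over both frailty groups, the run difference was above 0 for 5 genes and below 0 for 5 (53.4% of all genes were above 0), with 1 gene, Ankrd1, higher at an unadjusted p under 0.05 (5.6% of all genes were) and a median of 0.05 against 0.02 for all genes. That median was 0.017 without D9 and D62 and -0.055 without D62 alone.

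**Figure D2:**
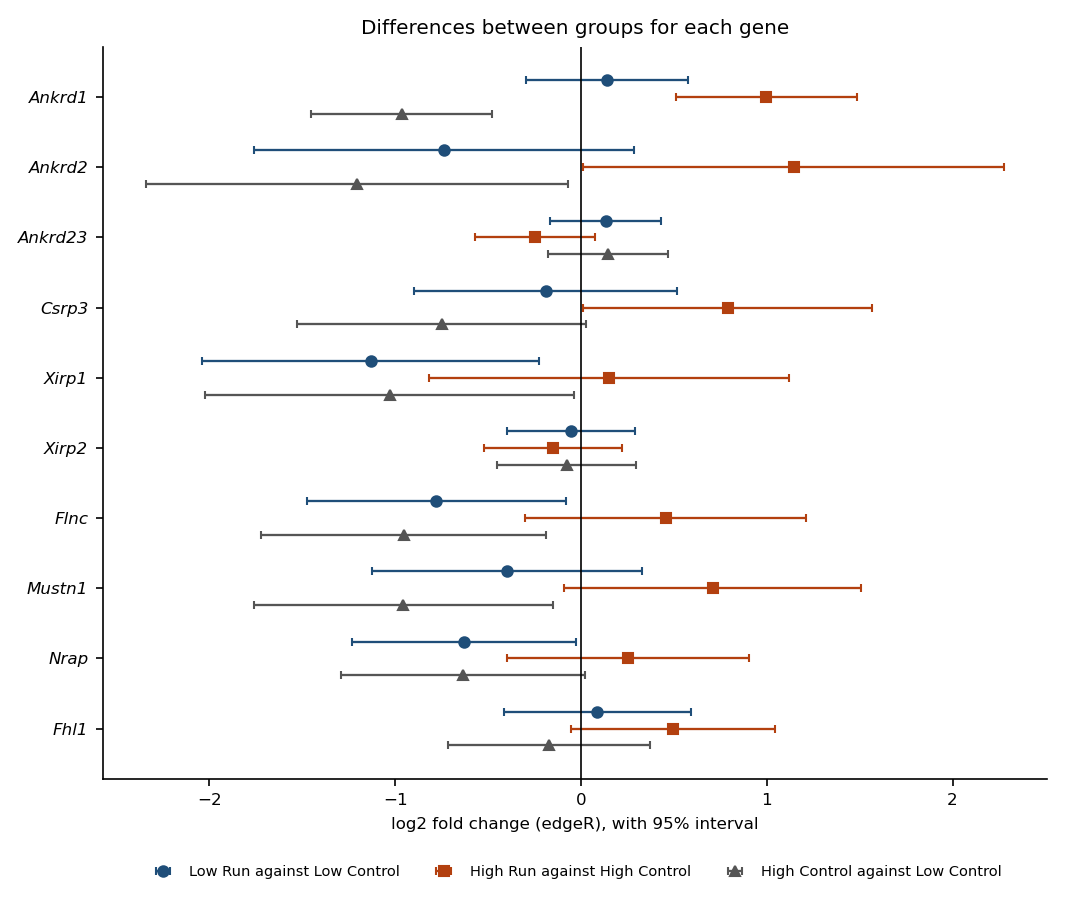
The horizontal axis is the edgeR log2 fold change with its 95% interval, and each row is 1 gene, with the Low run comparison as blue circles, the High run comparison as red squares and High Control against Low Control as gray triangles. The red square of Ankrd1 at 1.00 and its gray triangle at -0.97 have intervals clear of 0, whereas all 3 intervals of Xirp2 and Ankrd23 cross 0.

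Ankrd1, the cardiac ankyrin repeat protein that binds titin, had the lowest p of the 10 genes in the High run comparison. Its CPM were 65.3, 79.2, 77.5 and 58.3 in Low Control and 111, 55.7, 85.2 and 56.3 in Low Run. High Control mice had 34.3, 36.8 and 36.5 CPM, and High Run mice had 89.8, 69.0, 57.3 and 70.7. The 3 High Control mice were the lowest 3 of all 15, with a mean of 35.9 ± 1.35 CPM (SD, n = 3), and the other 3 groups overlapped one another at means of 70.1 to 77.2 CPM.

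High Run exceeded High Control in Ankrd1 by a log2 fold change of 1.00 (SE 0.23, 95% interval 0.51 to 1.48, 2.00-fold). By p it was the seventh of all genes tested, yet its FDR by edgeR was 0.956. All 4 High Run mice were above all 3 High Control mice, as for 3.45% of all genes. The value passed 0.1 in 3 of the other fits, at an adjusted p of 0.0722 by DESeq2, 0.0626 by voom with quality weights and 0.0966 by edgeR without the count filter, and reached from 0.0626 to 1.00 over all alternatives. DESeq2 called 0.0934% and voom 0.266% of their tested genes there. With D9 and D62 left out the log2 fold change was 1.00, and with any 1 mouse left out it lay between 0.87 and 1.09.

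Low Run against Low Control gave 0.14 for Ankrd1 (SE 0.21, 95% interval -0.30 to 0.58). The interaction was 0.86 (SE 0.31, edgeR FDR 0.600). High Control was lower than Low Control by a log2 fold change of -0.97 (SE 0.23, 95% interval -1.45 to -0.48, edgeR FDR 0.704), again the seventh of all genes by p, with no overlap of the mice, as for 5.28% of all genes. The High run difference of Ankrd1 was therefore measured from controls that lay below both Low groups, and High Run itself, at 71.7 ± 13.5 CPM (SD, n = 4), was close to Low Control at 70.1 ± 10.0 and Low Run at 77.2 ± 26.7. Over both frailty groups the run difference was 0.57 (SE 0.15, edgeR FDR 0.413).

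Ankrd2, the ankyrin repeat protein typical of slow fibers and stretched muscle, had 280.4, 423, 189 and 154 CPM in Low Control and 88.3, 151, 135 and 253 in Low Run. In High Control it had 217, 53.2 and 70.3 CPM, and in High Run 131, 175, 222 and 475. The groups overlapped, with D62 and D9 highest of all mice, and D23 stood above the other 2 High Control mice. High Run against High Control was 1.14 on the log2 scale (SE 0.53, edgeR FDR 0.956), which became 0.63 without D62 and 2.02 without D23. The interaction was 1.88 (SE 0.72, edgeR FDR 0.600), from -0.74 in Low mice and 1.14 in High mice. Without D9 and D62 these were 1.04, -0.41 and 0.63.

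Csrp3, muscle LIM protein, had 122, 89.3, 102 and 90.1 CPM in Low Control and 46.9, 73.6, 103 and 130.4 in Low Run. High Control had 104, 35.6 and 40.7 CPM and High Run had 69.0, 109.9, 107 and 129. Mouse D23 again sat with the run mice rather than with D25 and D67. The High run log2 fold change was 0.79 (SE 0.37, edgeR FDR 0.956), and it ranged from 0.52 without D25 to 1.44 without D23. In Low mice it was -0.19 (SE 0.33).

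Ankrd23, the third titin-binding ankyrin repeat protein, was steady, at group means of 372 to 442 CPM and with single mice from 314 to 514. Its run differences were 0.13 (SE 0.14) in Low mice and -0.25 (SE 0.15) in High mice, and every comparison of Ankrd23 had an FDR of at least 0.600. Most of its exon bases are shared with Gm42417, and how the reads were split between them was not tested.

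Among the Z-disc repair proteins, Xirp1 had 310.1, 840.0, 298 and 254 CPM in Low Control and 165, 236, 219 and 157 in Low Run. In High Control it had 343, 176 and 107 CPM and in High Run 227, 204, 113 and 383. All 4 Low Run mice lay below all 4 Low Control mice, as for 3.6% of all genes, and the High groups overlapped. The Low run difference of Xirp1 was -1.13 (SE 0.43, edgeR FDR 0.358), and it was -0.57 without D9. In High mice it was 0.15 (SE 0.46), and -0.21 without D62.

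Flnc, filamin C, had 1791, 3074, 1563 and 1228 CPM in Low Control and 807, 1392, 1307 and 958 in Low Run. Its High Control values were 1450.3, 814 and 702 CPM and its High Run values 1445, 1312, 717 and 1949. D9 was the highest of all 15 mice, and the groups overlapped. The Low run difference was -0.78 (SE 0.33, edgeR FDR 0.358) and the High one 0.46 (SE 0.36), with an interaction of 1.23 (SE 0.48, edgeR FDR 0.600). Without D9 and D62 these were -0.46, 0.22 and 0.68.

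Nrap, the scaffold of the myotendinous junction, had 2705, 3936, 2380.0 and 1911 CPM in Low Control and 1533, 2229, 1903 and 1398 in Low Run. High Control had 2336, 1492 and 1456 CPM and High Run 1982, 1936, 1204 and 3281. As for Flnc, D9 and D62 were high within their groups. The Low run difference of Nrap was -0.63 (SE 0.28, edgeR FDR 0.362), or -0.41 without D9, and the High one 0.25 (SE 0.31), or -0.050 without D62.

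Xirp2, the longer Xin repeat protein, did not follow Xirp1. Its mice ran from 1643 CPM in D62 to 2980.3 in Low Control mouse D98, with group means of 2212 to 2589 CPM. The run differences were -0.05 (95% interval -0.40 to 0.29) in Low mice and -0.15 (-0.52 to 0.22) in High mice, and both intervals held 0. They were -0.11 and -0.039 without D9 and D62.

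Mustn1 had 109, 308, 84.7 and 91.4 CPM in Low Control and 115, 73.3, 114 and 147 in Low Run. High Control had 88.2, 78.7 and 62.8 CPM and High Run 127, 97.8, 123 and 152. All 4 High Run mice were above all 3 High Control mice, with Ankrd1 the second of 2 genes of the 10 for which this held. It held for 3.45% of all genes. The High run log2 fold change of Mustn1 was 0.71 (SE 0.38, edgeR FDR 0.956). In Low mice the value was -0.40 (SE 0.34), and it turned to 0.23 without D9. The interaction of Mustn1 was 1.11, and 0.36 without D9 and D62.

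Fhl1, the LIM protein with the highest level per length, had 1436, 1357, 1432 and 1760.2 CPM in Low Control and 942, 2005, 1908 and 1505 in Low Run. High Control had 1729, 1086 and 1171 CPM and High Run 1865, 2578, 1668 and 1385. Mice of every group overlapped those of every other. The run differences were 0.09 (SE 0.24; 0.036 without D9 and D62) in Low mice and 0.50 (SE 0.26, edgeR FDR 0.956) in High mice.

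Which of the genes varied together between mice was asked after subtracting each group's mean, over the 45 pairs. Flnc, Nrap and Xirp1 moved as 1 block, and Ankrd2 and Csrp3 as another. For Flnc and Nrap Pearson's r was 0.96 and Spearman's rho 0.93 over 15 mice (permutation p = 0.00015 and 0.0002, adjusted over the 45 pairs 0.00225 and 0.0033), and r was 0.94 without the 2 mice farthest from the median. For Xirp1 and Flnc r was 0.95 and rho 0.93 (permutation p = 6e-05 and 0.00022, adjusted 0.00135 and 0.0033), and r was 0.93 without 2 mice. Xirp1 and Nrap had an r of 0.93 and a rho of 0.91 (permutation p = 3e-05 and 8e-05, adjusted 0.00135 and 0.0033), with 0.92 without 2 mice. Mice high in one of these 3 genes were thus high in the others, also with D9 and D62 left out, where the 3 values of r were 0.96, 0.93 and 0.89.

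Ankrd2 and Csrp3 had an r of 0.79 and a rho of 0.78 (permutation p = 0.00251 and 0.00477, adjusted 0.0282 and 0.0537), with 0.69 without 2 mice and 0.93 without D9 and D62. These 4 were the pairs with an adjusted p under 0.05 for r, and the median r over all 45 pairs was 0.21. The lowest values were between Ankrd2 and Xirp2 (r -0.65, rho -0.60, permutation p = 0.0166 and 0.0271, adjusted 0.149 and 0.244, r -0.52 without 2 mice) and between Ankrd1 and Csrp3 (r -0.50, rho -0.44, permutation p = 0.0978 and 0.179, adjusted 0.338 and 0.446, r -0.43 without 2 mice). Ankrd1 and Fhl1 followed (r -0.47, rho -0.39, permutation p = 0.217 and 0.236, adjusted 0.407 and 0.480), and their r was -0.03 without 2 mice, so it rested on D57 and D61. With all 15 mice Ankrd1 joined neither block: its r with the other 9 genes lay between -0.50 and 0.29. Without D57 and D61, the 2 mice farthest from its median, r was 0.52 with Flnc, 0.50 with Nrap and 0.44 with Xirp1. Without D9 and D62 these were 0.03, 0.13 and 0.12.

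**Figure D3:**
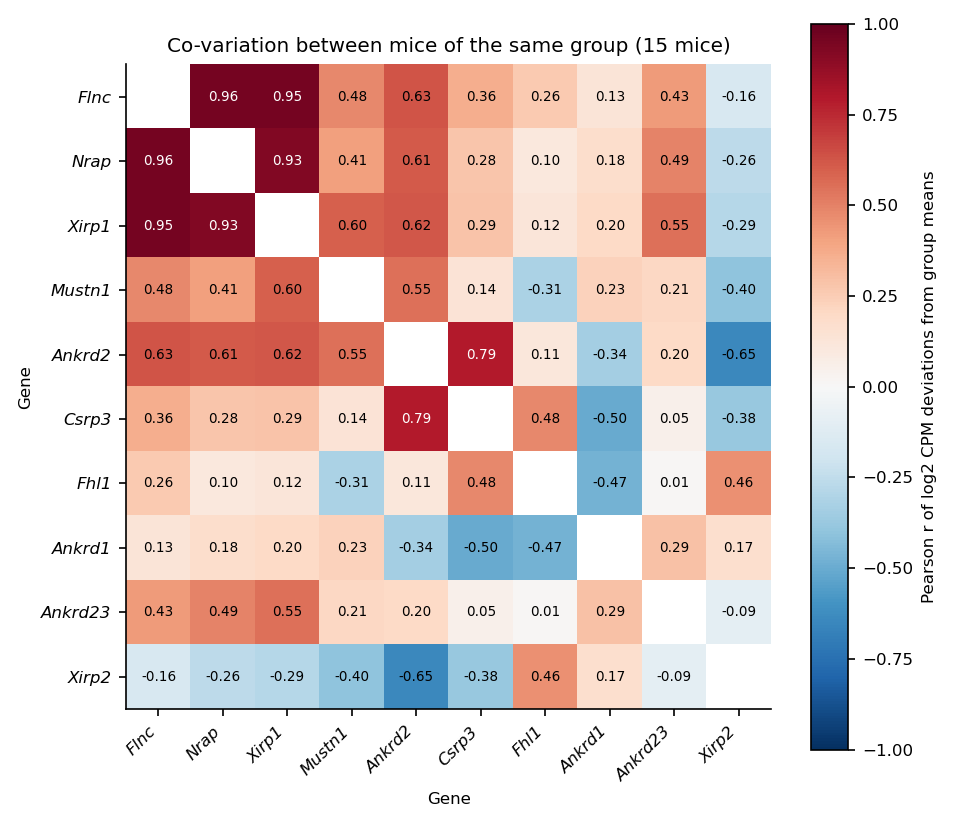
Rows and columns are the 10 genes and each cell gives Pearson's r of log2 CPM after removal of group means over 15 mice, from blue (negative) to red (positive). The dark red block of Flnc, Nrap and Xirp1 holds r of 0.93 to 0.96, and Ankrd2 with Csrp3 holds 0.79.

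Over all 16920 genes, the closest in pattern to each of the 10 across the 15 mice were ranked by Pearson's r of log2 CPM, as a description. For Ankrd1 they were Aif1l (r 0.86), Runx1 (0.86), a transcription factor induced in denervated and damaged muscle, and Gap43 (0.85), a growth-cone protein. These 3 kept r of 0.87, 0.88 and 0.85 without D9 and D62. For Ankrd2 they were Cbs (0.91), Camta1 (0.90) and Hspb7 (0.89), a small heat shock protein of muscle that binds filamin C. Csrp3 was closest to Ankrd2 itself (0.86), then Hspb7 (0.78) and Eppk1 (0.78).

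Flnc was closest to Nrap (0.96), Xirp1 (0.95) and Spen (0.95), so 2 of its 3 nearest genes of the whole table were on the list. Nrap was closest to Flnc (0.96), Coro6 (0.96) and Brd2 (0.96), and Xirp1 to Flnc (0.95), Dusp27 (0.95) and Hp1bp3 (0.95). Fhl1 was closest to Hdac7 (0.86), Myh2 (0.83), the myosin of type IIA fibers, and Dock1 (0.81). Xirp2 was closest to Itgav (0.92), Nid1 (0.88) and Klhdc10 (0.88). Mustn1 was closest to Rabggtb (0.92), Anxa7 (0.92) and Tuba1c (0.92), which were 0.76, 0.82 and 0.77 without D9 and D62. The nearest to Ankrd23 were 3 predicted genes, Gm15860 (0.79), Gm21370 (0.74) and Gm37860 (0.71).

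The 4 companion lists gave the rest of the pathway: 30 genes of the Z-disc and M-band scaffold, 13 of chaperone-assisted filamin turnover, 20 of membrane repair and the costamere, and 23 targets and regulators of YAP/TEAD and SRF/MRTF signaling. Every listed gene passed the count filter, and 0 of them passed an FDR of 0.1 in edgeR in any comparison. DESeq2 called 1 of them at that threshold, Srf. In Low mice the medians were -0.07, 0.12, 0.02 and 0.00 in that order of lists, and in High mice -0.04, 0.05, 0.10 and -0.02. With all 15 mice, none of these 4 lists lay as far from the median of all genes as that of the 10 strain genes did in either frailty group. Some lists of cell and fiber markers did, such as macrophage markers at a median of 0.41 in Low mice and 0.81 in High mice. Slow fiber markers were at 0.19 in Low mice and 0.56 in High mice.

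Of the scaffold genes 0 were higher and 2 lower at an unadjusted p under 0.05 in Low mice, where 5.92% of all genes were higher and 7.52% lower. In High mice 2 were higher and 2 lower, where 3.28% of all genes were higher and 1.9% lower, and these shares are the background for the other 3 lists too. Myom1, the M-band protein myomesin, was lower in all 4 Low Run than in all 4 Low Control mice, as for 3.6% of all genes (-0.48, SE 0.13, edgeR FDR 0.358). The second was Fhl3, a LIM protein related to Fhl1 (-0.69, SE 0.29, edgeR FDR 0.358). In High mice the lowest p values were those of Pdlim7, a Z-disc adaptor (-0.54, SE 0.17, edgeR FDR 0.956), and Myoz2, a calcineurin-binding protein of slow fibers (0.62, SE 0.26, edgeR FDR 0.956).

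For filamin turnover, the route by which strained Flnc is degraded, 0 genes were at an unadjusted p under 0.05 in Low mice. Hspb8 (0.36, SE 0.18, edgeR FDR 0.387) and Cryab (0.42, SE 0.22, edgeR FDR 0.399), both small heat shock proteins, had the lowest. In High mice 1 gene was higher: Hspb7 had 761, 348 and 420.2 CPM in High Control and 894, 912, 791 and 1012 in High Run (0.82, SE 0.32, edgeR FDR 0.956). Its lowest High Run mouse, at 791 CPM, was above its highest High Control mouse, D23 at 761, as for 3.45% of all genes. Unc45b, the myosin chaperone, was next (-0.27, SE 0.15, edgeR FDR 0.956).

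Membrane repair had 2 genes higher at an unadjusted p under 0.05 in Low mice, the annexins Anxa2 (0.53, SE 0.24, edgeR FDR 0.362) and Anxa1 (0.39, SE 0.18, edgeR FDR 0.367). In High mice 0 were, and the lowest p values were for the protease gene Capn1 (-0.27, SE 0.14, edgeR FDR 0.956) and for Anxa2 (0.49, SE 0.26, edgeR FDR 0.956).

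Of the YAP/TEAD and SRF/MRTF genes 1 was higher and 3 lower at an unadjusted p under 0.05 in Low mice, and 0 were higher and 3 lower in High mice. Actb, cytoplasmic actin, was higher in all Low Run than in all Low Control mice (0.47, SE 0.14, edgeR FDR 0.358), and Ajuba had -0.48 (SE 0.19, edgeR FDR 0.358). The share of all genes without overlap in the direction of Actb was not counted. Srf, serum response factor itself, had 98.5, 96.6 and 100.3 CPM in High Control and 76.6, 77.6, 75.9 and 64.0 in High Run. The groups did not overlap, though the share of all genes doing so in this direction was not counted. The log2 fold change of Srf was -0.42 (SE 0.11, edgeR FDR 0.956, DESeq2 adjusted p = 0.0722). Egr1, an immediate early gene with SRF sites, had 160.5, 53.5 and 139 CPM in High Control and 39.2, 25.2, 16.9 and 17.6 in High Run, a difference of -2.25 (SE 0.63, edgeR FDR 0.956). Neither gene passed the FDR of 0.1 in edgeR, and nor did Ankrd1, also known as a TEAD target, which was above 0 in the same comparison.

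**Figure D4:**
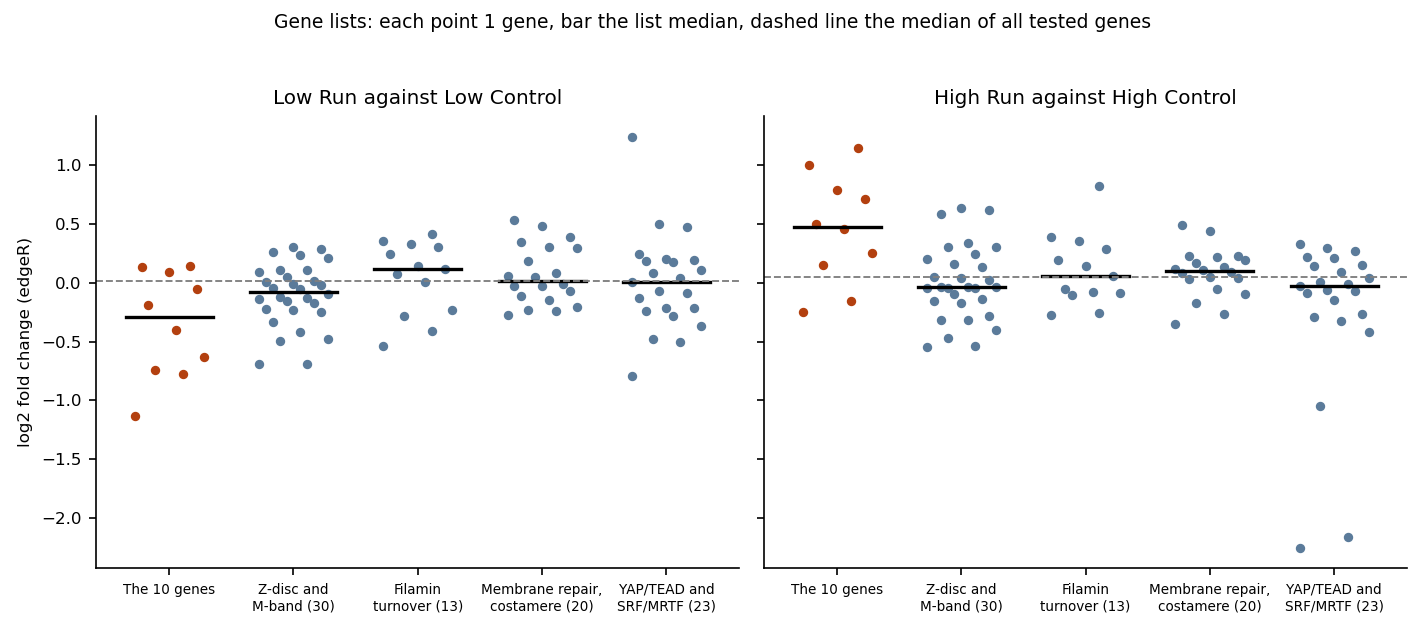
Each point is the edgeR log2 fold change of 1 gene (vertical axis) in Low mice (left) and High mice (right), by list, with the list median as a bar and the median of all tested genes as a dashed line. The bar of the 10 strain genes is at -0.29 on the left and 0.48 on the right, and the bars of the other 4 lists are between -0.07 and 0.12.

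Markers of other cells and fibers moved with some of these results, and skeletal muscle fiber markers went the other way. The skeletal muscle fiber markers, 10 genes, summed to 207378 to 236874 CPM in High Control and 160422 to 197041 in High Run, without overlap. Of them 9 were below 0 in the High run comparison, 7 were above 0 in the Low one and 8 were above 0 in High Control against Low Control. Over all genes, 57.2% were above 0 in the High run comparison and 48.1% below 0 in the Low one. In High Control against Low Control 52.8% of all genes were below 0, and these shares are the background for the other markers too. Slow fiber markers, 9 genes all detected, summed to 1922 to 2903 CPM in High Control and 2211 to 4985 in High Run, and to 2313 to 3467 in Low Control and 2225 to 4183 in Low Run. All 9 were above 0 in the High run comparison and 8 of 9 in the Low one. D62, the mouse with the highest Ankrd2, had the highest sum, whereas D9, with 423 CPM of Ankrd2, had a sum of 2313 CPM. Markers of regenerating fibers and satellite cells, 8 genes, summed to 63.5 to 81.6 CPM in High Control. In High Run they summed to 88.9, 95.9, 98.6 and 172 CPM, without overlap, and the highest was D62. Macrophage markers, 10 genes, summed to 110 to 171 CPM in High Control and 156 to 328 in High Run, with 10 of 10 above 0, and 9 of 10 were above 0 in Low mice. Erythroid markers, 5 genes, summed to 312 to 487 CPM in High Control and to 953, 384, 3856 and 1334 in High Run. Of them 5 of 5 were above 0 in High mice and 5 of 5 below 0 in Low mice. Schwann cell markers, 5 genes, had the same split. They summed to 172 to 203 CPM in High Control and to 132, 241, 240.1 and 374 in High Run. In High Control against Low Control, where 9 of the 10 strain genes were below 0, so were 10 of 10 macrophage, 5 of 5 erythroid, 8 of 9 slow fiber and 7 of 8 regenerating fiber markers. Tendon and myotendinous junction markers, 6 genes, ranged from 475 to 798 CPM in High Control and from 310.3 to 1254 in High Run. No marker of these lists was at 0 in every mouse, and their part in the differences of the 10 genes was not tested. Ankrd1 and Csrp3 are also genes of the heart, and cardiac markers summed to 5.38 to 13.4 CPM in all mice.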

How the data were processed

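RNA-seq libraries of 15 separate mice were used. Reads were aligned by the authors with STAR 2.7.9a to mm10, and the deposited counts are whole numbers of read pairs, uniquely aligned and on the strand of the gene, from featureCounts with Ensembl annotation; the submitters' processing notes give Subread 2.0.3, and the methods another version. The deposited log2-scale values are the authors' variance-stabilizing transformation from DESeq2 and served for the principal component and 1 check of the pairs. Gene positions came from GENCODE M21.

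Counts were tested in R 4.3.3 with edgeR 4.0.16 (filterByExpr, TMM, quasi-likelihood F-test, 1 mean per group over all 15 mice, FDR 0.1 by Benjamini-Hochberg). SE was the log2 fold change divided by the root of F. The 5 contrasts were the run difference in Low and in High mice, their difference (Frailty × Run), the difference between unrun High and Low mice, and the mean run effect. Log2 CPM used a prior count of 2. Correlations used 100000 shuffles of mice within groups, two-sided, in Python 3.11.15. Alternatives were DESeq2 1.42.0, voom with quality weights (limma 3.58.1), RLE and upper-quartile factors, no count filter, a minimum of 10 counts in all mice, only the groups compared, loess offsets (span 0.3) on length and GC, an FDR of 0.05, D9 and D62 left out, and each mouse left out. Depth was 19395125 to 30699216 counts, and the smallest count of the 10 genes in a mouse was 763. The script was tested on simulated counts.

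The members and companion lists were chosen with earlier results of these data known. From each companion list the text names any gene called at FDR 0.1 by edgeR (there were 0) and the 2 of lowest edgeR p in each run comparison; the 3 most similar genes per member and the 3 highest and 3 lowest pairs are named, as is Ankrd2 with Csrp3 for its adjusted p and Hspb7 for its recurrence.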

Additional observations from a re-analysis of the deposited data

Results flagged for a closer look

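Low Control mouse D9 stood apart in 2 of the 30 sets of 4 mice examined, 1 per gene and group of 4, by Dixon's test with a critical value of 0.829. Chance marks about 1 in 20 such sets, and the 10 groups of 3 mice were not examined. For Xirp1, D9 had 840.0 CPM against 254 to 310.1 in the other 3 Low Control mice, a gap of 0.905 of the range. For Mustn1, it had 308 CPM against 84.7 to 109, a gap of 0.890 of the range.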

How the results depend on the processing

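Of the 430 values under other settings, 418 kept their direction and side of the threshold, and of 750 values with 1 mouse left out 736 did. Much of this was fixed by the design: a pairwise value barely moves without a mouse of another group, and the main FDRs were at least 0.358. Size was not judged, and the Xirp1 interaction counted as kept at 1.28 with all mice and 0.37 without D9 and D62. No gene of the 10 was called at FDR 0.1, except 1 (Ankrd1) in High Run against High Control by DESeq2, by voom and without the count filter. In Low mice Mustn1 turned to 0.11 with voom and to 0.23 without D9 and D62, and Xirp2 to 0.013 with upper-quartile factors and 0.053 with length and GC offsets. In High mice Xirp1 was -0.21 and Nrap -0.050 without D9 and D62. Without them the interaction of Xirp2 was 0.066, the interaction median 0.47 and the median between unrun groups -0.44. With voom the Low values were -0.55 for Xirp1, -0.39 for Flnc and -0.35 for Nrap, with a median of -0.13. The comparison of unrun groups gave 0.012 for Xirp2 with length and GC offsets, and voom gave 0.071 for the mean run effect of Flnc. The causes were not tested, other than that fewer mice were fitted.

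With 1 mouse left out the Low run values ranged from -0.60 to 0.23 for Mustn1, -0.13 to 0.020 for Xirp2, -0.092 to 0.26 for Ankrd1, -0.45 to 0.019 for Csrp3 and -0.052 to 0.27 for Fhl1. The High run values ranged from -0.21 to 0.71 for Xirp1 and -0.050 to 0.51 for Nrap, and the High median from 0.34 to 0.78. The interaction of Xirp2 ranged from -0.25 to 0.024 and the median between unrun groups from -1.001 to -0.44. The mean run effect ranged from -0.10 to 0.00035 for Ankrd23, -0.28 to 0.030 for Flnc and -0.060 to 0.64 for Ankrd2. The fit to only the groups compared gives no value for the interaction or the mean run effect. Ranks of level per length held for 6 of the 10 genes when the longest transcript was used. Over all genes, calls were 0 with edgeR and its count filter in each comparison, and in Low mice, High mice and the mean run effect 10, 15 and 106 with DESeq2, 0, 45 and 0 with voom, and 86, 19 and 81 without the count filter, which also gave 4 for the interaction; between unrun groups each gave 0. No paired analysis was done, because the groups held separate mice and the labels share no replicate numbers between groups. Whether more mice or more depth would change the calls was not tested.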
